A study of Arabidopsis thaliana with 2 samples.

Results

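The precursors mir159b, mir319a, mir319b and mir319c were examined, 4 of the 151 microRNA precursors whose fragments were listed in a pair of SPARE libraries of Arabidopsis thaliana. SPARE ligates an adaptor to the 5′ end of RNA fragments and copies them with a primer placed downstream in each precursor, so that each read marks where an RNA began, usually because it was cut there. All tags that carried 1 of the 4 precursor names were taken, where a tag is a distinct sequence with its read count. They were 38 of the 1755 tags of the fiery library, with 123 of its 33192 reads, and 36 of the 677 tags of the wild-type library, with 393 of its 12129 reads. The fiery library came from a mutant that the labels name only as fiery, with neither its allele nor its ecotype, and the wild-type library came from Col-0. Each was made from total RNA depleted of ribosomal RNA of mixed seedlings of 2 weeks and leaves and inflorescences of plants of 5 weeks, all grown at 23 °C under 16 h of light. With 1 library per genotype there was no replicate check and no test between them. All intervals are exact 95% intervals. They and the limits for counts of 0 cover only the error of counting, because the reads came from PCR and carried no molecular identifiers that would tell separate molecules apart. Tags reached 40 nt in the fiery library and 50 nt in the wild-type library, and those of 35 nt or less held 22.4% and 65.6% of the reads.

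Plant microRNAs are cut by the RNase III enzyme DICER-LIKE1 from hairpin RNAs in the nucleus. In most hairpins the first cut is made near the base of the stem and the second near the loop. The precursors of miR159 and miR319 have long stems and are known for the opposite course, in which the enzyme starts next to the loop and cuts the stem several times on its way down to the mature RNA. Mature miR319 directs cleavage of mRNAs of TCP transcription factors, which restrain cell division in leaves and petals. Mature miR159, close in sequence, directs cleavage of mRNAs of the MYB33 and MYB65 factors, which act in anthers and seeds.

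The mature RNA lay on the 3′ arm of all 4 precursors. The mature sequences are shown because the cuts are placed relative to them, with the seed (bases 2 to 8) in capitals. They were read from the TAIR10.1 genome at the RefSeq coordinates of each mature RNA.
mir159b: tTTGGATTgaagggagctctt
mir319a: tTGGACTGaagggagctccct
mir319b: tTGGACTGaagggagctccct
mir319c: tTGGACTGaagggagctcctt
The 3 miR319 precursors shared 1 seed, mir319a and mir319b gave the same mature RNA, and mir159b had another seed. The 3′ arms, each of 79 nt, are shown because they carry the ladder of cuts, with the first nucleotide of every 5′ end that had at least 3 reads in a library in capitals. On the plus strand, the stretches are chr1:6220759-6220837 for mir159b, chr4:12353055-12353133 for mir319a and chr2:17029816-17029894 for mir319c. That of mir319b is chr5:16660465-16660543 on the minus strand.
mir159b arm: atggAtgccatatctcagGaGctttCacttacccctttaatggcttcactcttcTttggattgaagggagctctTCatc
mir319a arm: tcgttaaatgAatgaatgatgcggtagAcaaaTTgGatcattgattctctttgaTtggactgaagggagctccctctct
mir319b arm: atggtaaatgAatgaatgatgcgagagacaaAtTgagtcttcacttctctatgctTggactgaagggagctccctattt
mir319c arm: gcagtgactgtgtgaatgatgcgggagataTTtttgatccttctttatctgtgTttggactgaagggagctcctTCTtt
Mature and arm sequences are given as DNA of the precursor strand. Positions below are nucleotides (nt) of the annotated precursor, counted from 1 at its 5′ end. A cut at the first nt of the mature RNA is called loop-side, a cut just after its last nt base-side, each within 1 nt, and ends before the loop-side cut are called upstream. Every member tag matched the genome once, on the sense strand, and the 4 loci overlapped no other annotated gene.

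mir319a (AT4G23713, chr4:12352956-12353131, plus strand, 176 nt) had the clearest ladder, with the same 3 rungs in both libraries. The outermost rung, nt 110, had 8 of 36 fiery reads (22.2%, interval 10.1 to 39.2%) and 64 of 150 wild-type reads (42.7%, interval 34.6 to 51.0%). The next rung began at nt 133, with 8 fiery reads and 31 wild-type reads. Ends 2 nt farther, at nt 135, had 5 fiery reads and 10 wild-type reads, and ends at nt 132 had 1 fiery read and 4 wild-type reads. The last rung was the loop-side cut itself, nt 154, with 11 fiery reads and 13 wild-type reads. From nt 110 to nt 133 was 23 nt, and from nt 133 to nt 154 was 21 nt. The single position with the most reads was the loop-side cut in fiery and the outer rung in wild type. The base-side cut, nt 175, had 1 fiery read, and 0 of 150 wild-type reads, which allows a share of up to 2%. All loop-side tags, 11 fiery reads and 16 wild-type reads, had 27 to 29 nt and ended at nt 181, 7 nt past the mature RNA. A fragment copied from that position could hold no base-side end long enough to be listed. Other tags short of the read length ended at nt 230, with 1 fiery read and 21 wild-type reads, or at nt 209, with 1 fiery read. Those ending at nt 230 began past the base-side cut, at nt 201 in fiery and at nt 194 to 202 in wild type. The tag ending at nt 209 began at the base-side cut itself. Fragments copied from positions past nt 181 were thus present, but none of these tags spanned the base-side cut.

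mir319b (AT5G41663, chr5:16660469-16660640, minus strand, 172 nt) had the same outer rung 44 nt before its mature RNA, seen mostly in the wild-type library. Its nt 108 had 1 of 6 fiery reads and 35 of 55 wild-type reads (63.6%, interval 49.6 to 76.2%). The inner ends, nt 129 and nt 131, had no fiery read and 5 and 4 wild-type reads. They lay 21 and 23 nt past the outer rung. Ends at nt 151 and nt 153, on either side of the first nt of the mature RNA, had no fiery read and 2 and 4 wild-type reads. The base-side cut, nt 173, had 1 fiery read and 2 wild-type reads. An end past the annotated precursor, nt 192, had 3 wild-type reads. The fiery library thus touched this ladder with 2 reads, and its other 4 reads began at nt 290 and nt 292, 118 and 120 nt past the annotated precursor. With 6 reads, a share of up to 50% could be missed there.

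mir319c (AT2G40805, chr2:17029701-17029899, plus strand, 199 nt) lacked the outer rung in both libraries and had its main cuts at an inner rung and at the base-side cut. No end lay 40 to 60 nt before the mature RNA in 34 fiery reads, which allows a share of up to 8.82%, or in 155 wild-type reads, which allows up to 1.94%. The inner rung was split over neighbouring nucleotides. Its nt 146 had 1 fiery read and 38 wild-type reads, and its nt 147 had 8 fiery reads and 32 wild-type reads. The base-side cut was split as well. Ends at nt 190 had 5 fiery reads and 36 wild-type reads, those at nt 191 had 5 fiery reads and 39 wild-type reads, and those at nt 192 had 3 fiery reads and 7 wild-type reads. The distances from nt 146 to nt 190 and from nt 147 to nt 191 were both 44 nt. The loop-side cut had 4 of 34 fiery reads (11.8%, interval 3.30 to 27.5%), 3 of them at nt 169 and 1 at nt 170, and 0 of 155 wild-type reads. Its 7 wild-type end positions were all seen in fiery too, whereas the fiery library had 7 further positions, 6 of them with 1 or 2 reads.

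mir159b (AT1G18075, chr1:6220646-6220841, plus strand, 196 nt) had its main cut on different sides of the mature RNA in the libraries. In the fiery library 25 of 47 reads began at nt 189, the first nt after the mature RNA, and with the ends within 1 nt this base-side cut held 30 reads (63.8%, interval 48.5 to 77.3%). In the wild-type library it held 1 of 33 reads (3.03%, interval 0.0767 to 15.8%). The outer rung, nt 118, had 2 fiery reads (4.26%, interval 0.520 to 14.5%) and 10 wild-type reads (30.3%, interval 15.6 to 48.7%). Between it and the mature RNA, nt 132, nt 134 and nt 139 had no fiery read and 6, 6 and 4 wild-type reads. The loop-side cut, nt 168, had 3 fiery reads and 2 wild-type reads. A further end 22 nt past the base-side cut, nt 211, had 5 fiery reads and no wild-type read, all in 31 nt tags. The fiery ends were thus mostly on the base side and the wild-type ends on the loop side of the same mature RNA. Only 3 of the 12 fiery and 9 wild-type end positions were shared, and they held 63.8% of reads in fiery and 39.4% in wild type. The shared positions of mir319a, 6 of 8 fiery and 12 wild-type ones, held 94.4% of reads in fiery and 86.7% in wild type. Sharing was counted in the members only, so the degree usual for other precursors at these depths is not known. mir319a also had more wild-type reads than mir159b.

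**Figure D1:**
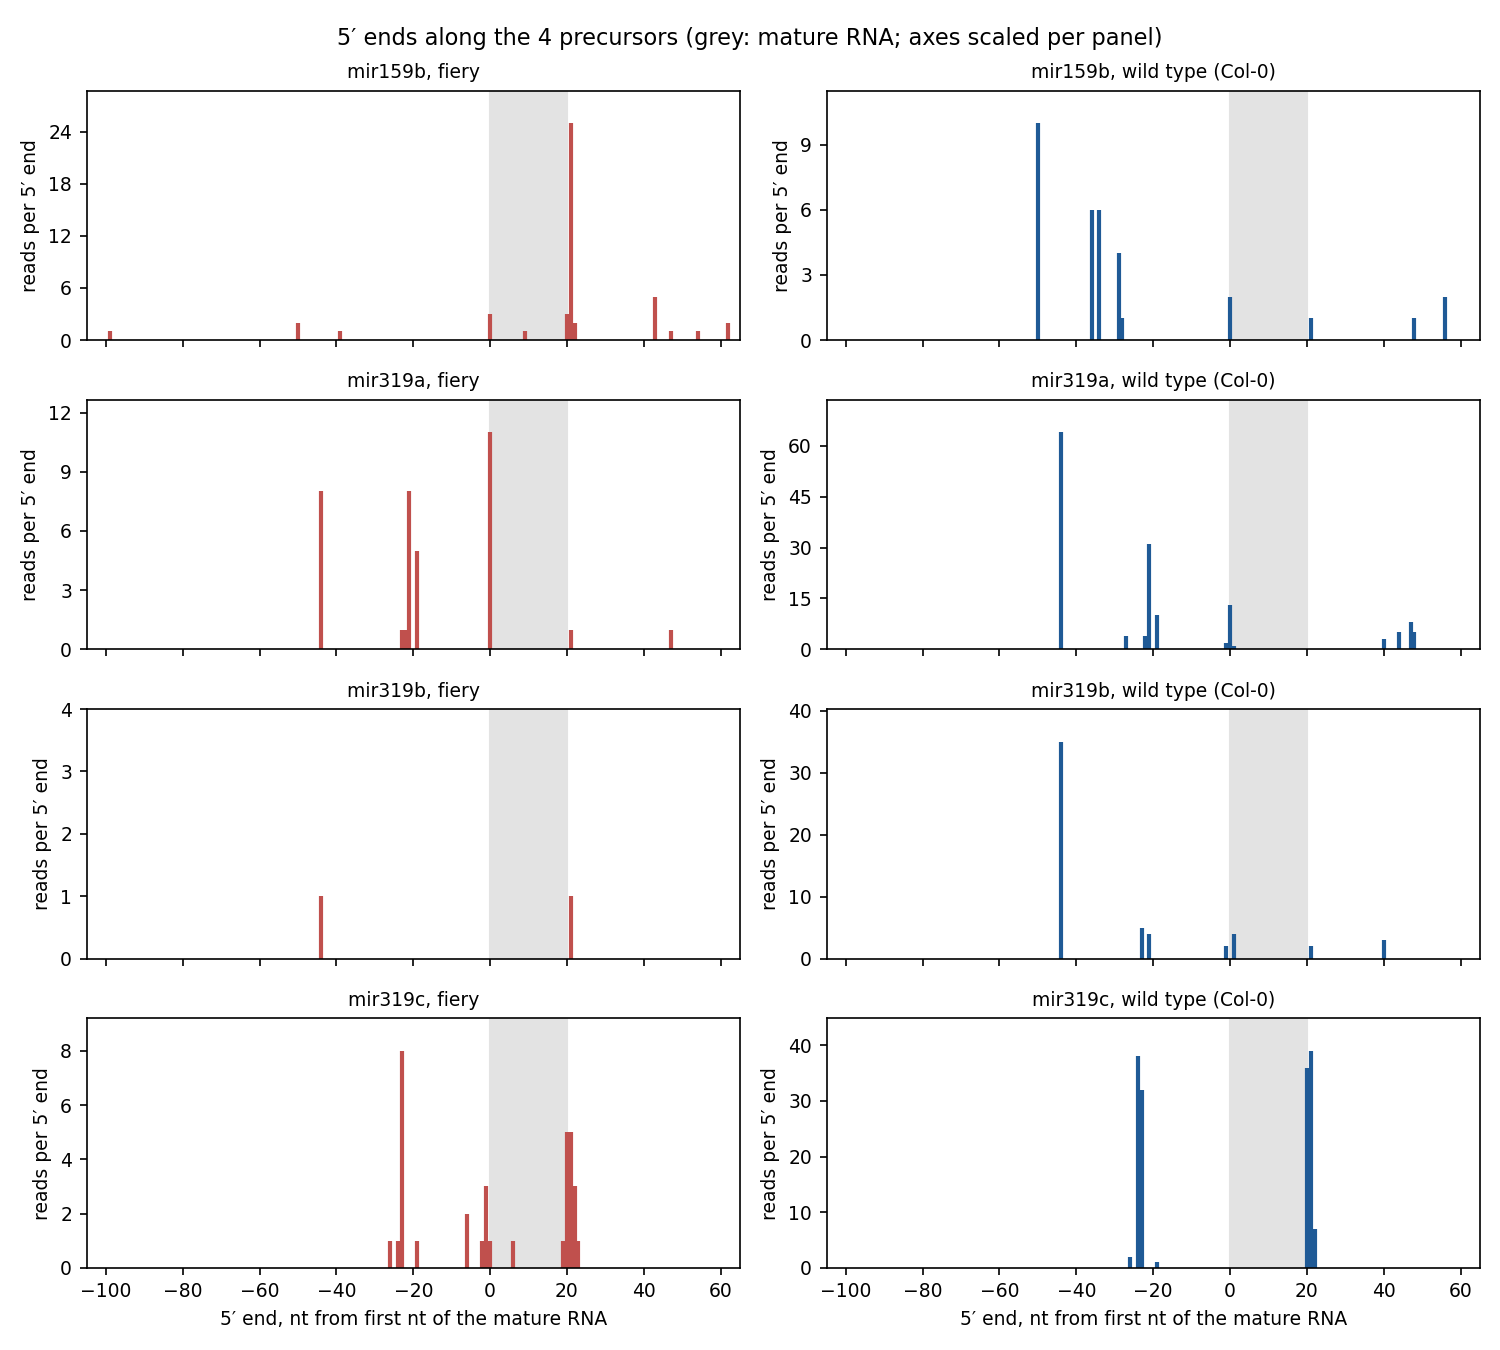
Reads (vertical axis, scaled per panel) by the position of their 5′ end in nt from the first nt of the mature RNA (horizontal axis), fiery left and wild type right, 1 precursor per line of panels, with the mature RNA in grey. The outer end at 44 nt before the mature RNA is seen in mir319a and mir319b, with 35 wild-type reads in mir319b, and mir159b has its highest bar after the mature RNA in fiery and before it in wild type. The 4 fiery reads of mir319b at nt 290 and nt 292, and no other read of a member, lie outside the range drawn.

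The closest relative of mir159b was also listed. mir159a (AT1G73687, chr1:27713233-27713416, minus strand) makes most of the mature miR159 of the plant. It had 0 fiery reads and 27 wild-type reads, so its share was at least 24.6-fold higher in wild type when 3 counts are taken as the limit for the fiery library. That figure leaves out the counting error of the wild-type reads, with which the exact interval reached down to 18.7-fold higher. Its outermost wild-type end inside the annotated precursor, nt 113 with 7 reads, lay 50 nt before the mature RNA, the same distance as nt 118 of mir159b. Outside the annotated precursor, 5 wild-type reads of mir159a began at nt -23 and 2 at nt 500. Its base-side cut, nt 184, had 8 wild-type reads. The mature RNAs of mir159a and mir159b were identical in 20 of 21 nt, and the precursors in 78.5% of aligned columns, where nt 113 and nt 118 faced each other. mir159c, the remaining copy, had 2 fiery reads and 0 wild-type reads.

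The steps between neighbouring cuts were close to the length of a microRNA in the miR319 precursors. Ends joined within 2 nt and holding at least 10% and at least 3 of a precursor's reads are called principal ends. In the fiery library there were 5 spacings between neighbouring principal ends, and all 5 fell between 21 and 23 nt, with a median of 22 nt. They were 23 and 21 nt in mir319a, 22 and 21 nt in mir319c, and 22 nt in mir159b, where the step led from the base-side cut to nt 211. That end, with 5 reads, lay past the annotated precursor and so outside the folded stem. In the wild-type library there were 7 spacings with a median of 21 nt, and 4 of them fell between 20 and 24 nt. These were 23 and 21 nt in mir319a, and 21 and 24 nt in mir319b. The others were 45 nt in mir319c, which had no principal end at the loop-side cut, and 14 and 7 nt in mir159b. With principal ends at 5% of reads the fiery median was 21.5 nt and the wild-type median 23 nt. In mir159b the end at nt 139 lay 21 nt past the outer rung and 29 nt before the mature RNA, so that its ladder was not a row of equal steps. The ends at nt 132 and nt 134, with 6 wild-type reads each, lay within the first of these steps.

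The stretches between the cuts of mir319a and mir319b are shown because they have the same place in both and nearly the same lengths. Capitals mark nt that are unpaired in the minimum free energy fold of the annotated precursor by RNAfold.
mir319a, nt 110 to 132: AatgaatgaTGcggTagAcAaat
mir319b, nt 108 to 128: AatgaatgaTGcgagagACAa
mir319a, nt 133 to 153: tggatcattGatTCtctTtga
mir319b, nt 129 to 151: attgagtcTtcacTTctctatgC
The 2 precursors were identical in 74.7% of aligned columns, the outer rungs faced each other in the alignment, and the first 13 nt from them were the same. mir319c was identical to mir319a in 64.0% of aligned columns, and the nt of mir319c that faced the outer rung, nt 126, had no read in either library. In the folds, the outer rungs of mir159b, mir319a and mir319b were unpaired nt. The inner ends at nt 133 of mir319a, at nt 129 and nt 131 of mir319b, and at nt 146 and nt 147 of mir319c were paired. The inner ends of mir159b at nt 132 and nt 139 and a minor end of mir319a at nt 127 were unpaired, and nt 134 of mir159b was paired. Between the outer rung and the partner of the first paired nt after it lay 43 nt in mir319a, 41 nt in mir319b and 54 nt in mir159b. The fold is a prediction and was not measured here.

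The stretches of mir159b are shown beside them because the stretch next to the mature RNA was longer and less paired.
mir159b, nt 118 to 138: ATGccataTctCagGagcttt
mir159b, nt 139 to 167: CacttACccctTTAATGgctTCactcttc
In the stretch of 29 nt next to the mature RNA, 11 nt were unpaired, against 4 nt in each of the matching stretches of mir319a and mir319b.

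Counted over the whole precursor, most wild-type reads and fewer fiery reads lay upstream of the mature RNA. In mir319a, upstream ends held 63.9% in fiery and 75.3% in wild type. In mir319c they held 41.2% in fiery and 47.1% in wild type. In both of these precursors the interval of the fiery share (46.2 to 79.2% and 24.6 to 59.3%) included the wild-type share. In mir159b they held 8.51% of the fiery reads (interval 2.37 to 20.4%) and 81.8% of the wild-type reads (interval 64.5 to 93.0%), and the intervals did not overlap. This contrast depended on reads per tag, since 25 of its 47 fiery reads were 1 base-side tag. With each distinct tag counted once, its outer rung held 8.33% in fiery and 10% in wild type. Upstream shares of distinct tags ran from 25 to 62.5% over the members with enough fiery reads, and from 41.7 to 57.1% in wild type. In mir319b they held 1 of 6 fiery reads and 44 of 55 wild-type reads (80.0%). Pooled over the 4 precursors, upstream ends held 34.1% of reads in fiery and 65.4% in wild type, and base-side cuts held 36.6% and 21.6%. All upstream ends of the members were in tags longer than 35 nt.

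**Figure D2:**
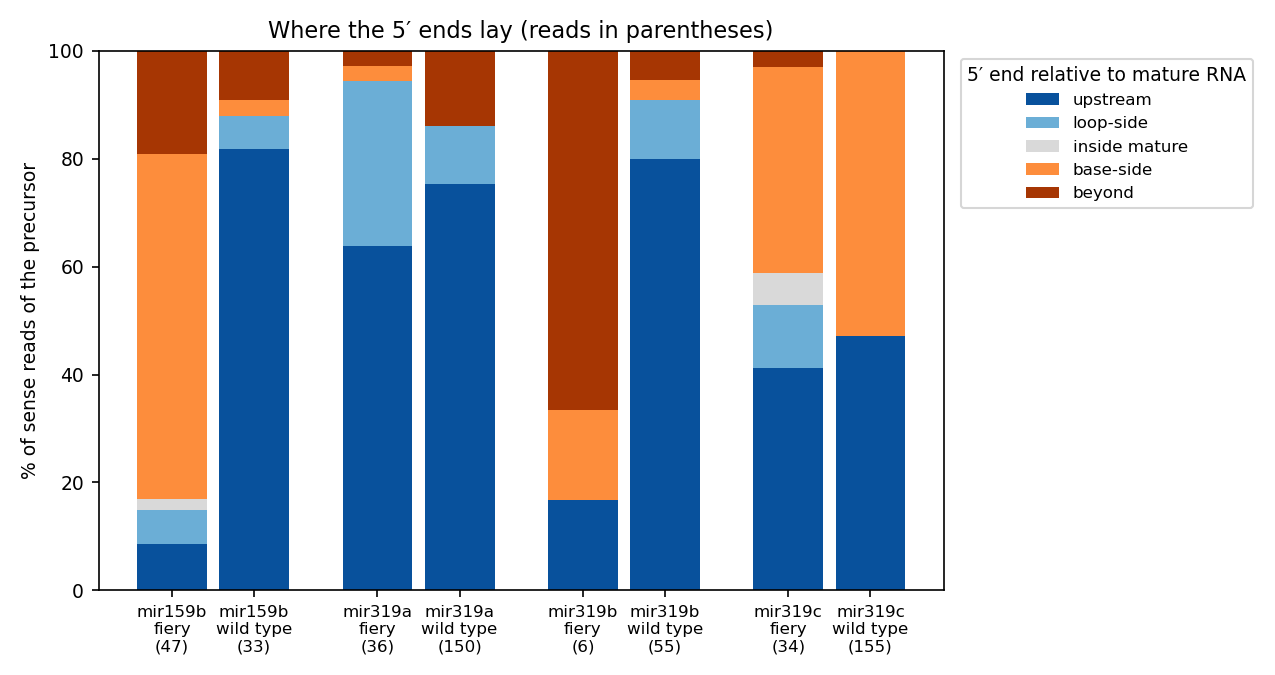
Percent of the sense reads of each precursor (vertical axis) by place of the 5′ end relative to the mature RNA, fiery left of wild type for each precursor, with the number of reads in parentheses. Upstream ends take 75.3 to 81.8% of the wild-type reads of mir319a, mir319b and mir159b, and base-side ends take 63.8% of the fiery reads of mir159b.

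Upstream ends of this kind were uncommon in the other precursors with 1 mature RNA on the 3′ arm and at least 30 reads. At least 30% of the reads lay upstream in 2 of the 3 members in the fiery library, against 8% of 50 precursors, members included, and in all 4 members in the wild-type library, against 17.1% of 35 precursors. In both libraries mir319a was among the 3 highest shares, at rank 1 in fiery and rank 3 in wild type. mir159b ranked 14 in fiery and 1 in wild type, mir319b, with too few fiery reads, 2 in wild type, and mir319c 4 in fiery and 5 in wild type. The median share was 41.2% in fiery and 77.7% in wild type for the members, against 1.47% and 0% for the other 47 and 31 precursors. Among the other precursors, mir775 with 52.7% and mir830 with 48.1% stood between mir319a and mir319c in fiery, and mir775 with 73.3% stood between them in wild type. Of the upstream reads of mir775, 34 of 39 fiery reads and 18 of 22 wild-type reads began before its annotated precursor, most often 329 nt before the mature RNA, whereas the main upstream end of mir830 in fiery lay 4 nt before it. With ends before the annotated precursor left out, the 4 members were the 4 highest of 33 in wild type, the next being mir167a with 8.57%, and mir319a and mir319c were ranks 1 and 3 of 50 in fiery.

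**Figure D3:**
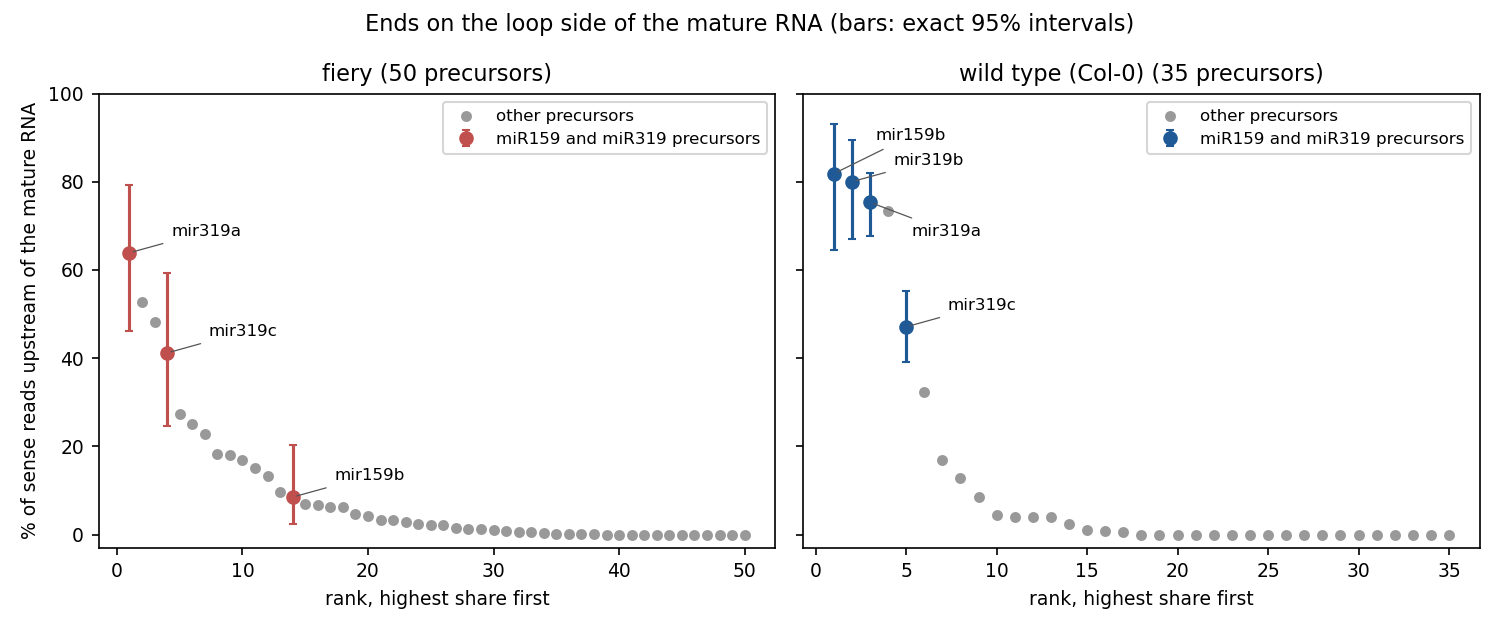
Percent of the sense reads with a 5′ end upstream of the mature RNA (vertical axis) by rank (horizontal axis), for 50 precursors in fiery on the left and 35 in wild type on the right, with exact 95% intervals for the members. In wild type the 4 members lie between 47.1 and 81.8%, while most other precursors lie near 0, and in fiery mir159b lies at 8.51% among the other precursors.

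A principal end more than 10 nt before the mature RNA was found in 2 of the 3 members with enough reads in the fiery library, against 8% of 50 precursors, and in all 4 members in the wild-type library, against 20% of 35 precursors. At least 2 such ends were found in 1 of 3 members in fiery, mir319a, against 2% of 50 precursors. In wild type 3 of 4 members had them, mir159b, mir319a and mir319b, against 11.4% of 35 precursors. In a window 20 to 24 nt before the mature RNA, where the inner rungs of the miR319 precursors lay, the members had 19 of 123 fiery reads (15.4%) and 114 of 393 wild-type reads (29.0%). The other precursors together, mir159a and mir159c left out, had 20 of 29652 fiery reads and 1 of 10401 wild-type reads there. In a window 43 to 51 nt before it, where the outer rungs lay, the members had 11 fiery reads (8.94%) and 109 wild-type reads (27.7%), and the others had 37 and 1. Both windows were set from the positions of the members, so that these counts are a description.

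Reads at the cuts on either side of the mature RNA differed among the members. Of these reads, mir319a had 11 of 12 fiery reads and 16 of 16 wild-type reads at the loop-side cut. mir319b had 0 of 1 fiery reads and 6 of 8 wild-type reads there. mir319c was the reverse of mir319a, with 4 of 17 fiery reads (23.5%, interval 6.81 to 49.9%) and 0 of 82 wild-type reads, which allows up to 4.40% by the exact interval. mir159b had 3 of 33 fiery reads (9.09%, interval 1.92 to 24.3%) and 2 of 3 wild-type reads. These 2 wild-type reads were in tags of 27 and 31 nt that ended 6 and 10 nt past the mature RNA. As in mir319a, such fragments could hold no base-side end long enough to be listed. In tags longer than 35 nt the wild-type share of mir159b was 0%, with an interval up to 97.5%. Pooled, the loop-side share was 28.6% in fiery and 22.0% in wild type, and 13.7% and 8.60% without mir319a, whose loop-side tags ended at nt 181. The values without mir319a still included the 2 short wild-type tags of mir159b. With each distinct tag counted once the order turned, to 33.3% in fiery and 58.3% in wild type. A 5′ end shows where a fragment began and not in which order the cuts were made.

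Fragments of the 4 precursors were a smaller part of the fiery library than of the wild-type library. Together they held 0.371% of the fiery reads (interval 0.308 to 0.442%) and 3.24% of the wild-type reads (interval 2.93 to 3.57%), a ratio of 0.114 (interval 0.0926 to 0.140), or 8.74-fold more in wild type. For mir319a the ratio of fiery to wild-type shares was 0.0877 (interval 0.0592 to 0.127). For mir319c it was 0.0802 (interval 0.0536 to 0.117), and for mir319b 0.0399 (interval 0.0140 to 0.0924). With only tags inside the annotated precursor, which leaves 1 of its 6 fiery reads, mir319b was at 0.00364 (interval 9.04e-05 to 0.0212). That setting also changed the library totals. In it mir319c, with all its reads inside its precursor, moved to 0.0399 (interval 0.0267 to 0.0582). For mir159b the ratio over all tags was 0.520 (interval 0.326 to 0.839). The 3 miR319 precursors were at least 2-fold lower in fiery and mir159b lay just short of that, and of the 81 precursors that had 30 or more reads in sum over the libraries, 39.5% were likewise at least 2-fold lower. The median ratio was 0.0839 over the 4 members and 1.02 over the 81. Ordered from the lowest ratio, mir319b, mir319c, mir319a and mir159b were ranks 7, 13, 15 and 34 of 81. The intervals of mir319a and mir319c overlapped widely, and that of mir159b did not overlap those of the miR319 precursors.

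**Figure D4:**
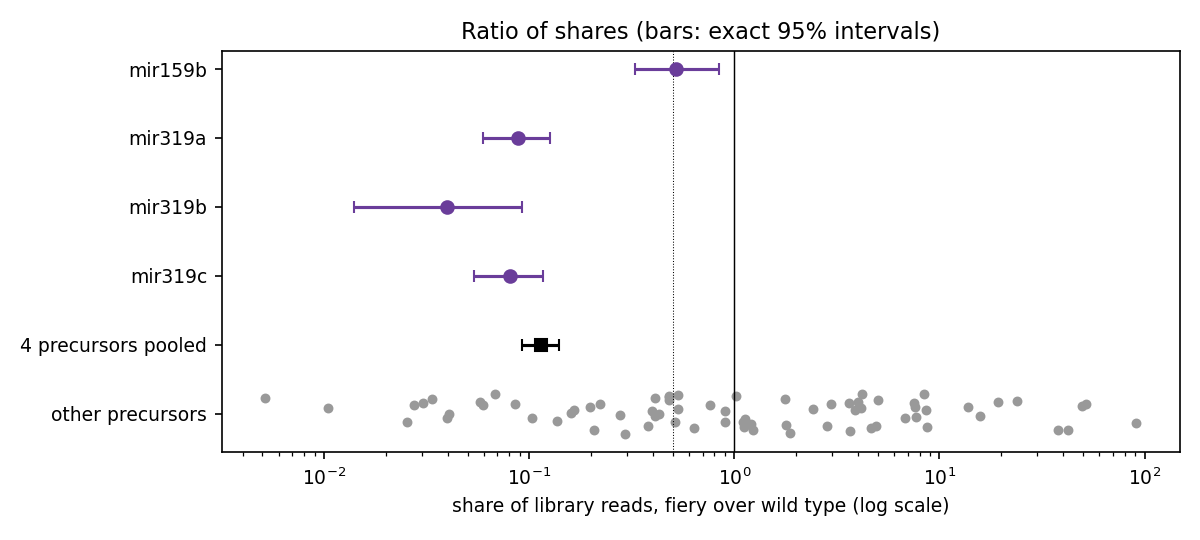
Ratio of the share of library reads, fiery over wild type (horizontal log axis), for each member and the 4 pooled, with exact 95% intervals, above the other precursors with a summed count of 30 or more. The dotted line marks 2-fold lower in fiery, the solid line equal shares, and 3 precursors with no wild-type read are not drawn. The 3 miR319 precursors lie between 0.0399 and 0.0877, and mir159b at 0.520.

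The size of this difference depended on the class of tags, which the libraries held in unequal parts. The pooled ratio was 0.0477 in tags longer than 35 nt and 0.509 in shorter tags, 0.407 with each distinct tag counted once, 0.0540 for tags inside the annotated precursor, and 0.220 relative to the median ratio, 0.520 or a log2 shift of -0.94, of the 31 precursors that had 30 or more reads in both. For mir319c the ratio of distinct tags was 0.772 (interval 0.291 to 2.26). For mir159b the call of 2-fold changed with the setting. Its ratio was 0.221 in tags longer than 35 nt, 0.231 inside the annotated precursor, 0.463 for distinct tags, 0.459 without the precursor with the most reads in each library and 0.456 without the mir405 copies, all past 2-fold lower in fiery. It was 1 relative to the median ratio, since mir159b was itself the median precursor, and its direction turned in the shorter tags, at 2.14 (interval 0.458 to 13.2). In SPARE, less of a precursor, faster loss of its fragments and poorer copying of them cannot be told apart, because only the fragments were counted.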

How the data were processed

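Per the labels' protocols, an RNA adaptor was ligated to rRNA-depleted total RNA (1 µg), which was reverse transcribed in 10 multiplex reactions with precursor-specific oligos, amplified in 18 PCR cycles and sequenced. Bowtie and TAIR10 are named in the submitters' processing notes, the aligner's version and settings being not given in the sources used here. Deposited values are whole-number read counts per tag, raw as far as the values show, and the authors assigned each tag to its precursor.

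Tags were placed by exact match on both strands of TAIR10.1 within 2000 nt of the RefSeq precursor of that name. No exact match lay within that distance for 0.193% of fiery and 0.148% of wild-type reads, which were left out of end positions, as were antisense reads (134 and 17). Precursors were folded with RNAfold 2.7.2 and aligned globally with Biopython 1.88 (match 1, mismatch -1, gap opening -2, extension -0.5). Shares carry Clopper-Pearson intervals, and ratios of shares carry exact conditional binomial intervals at the 95% level. A ratio was called past 2-fold. A count of 0 was given the limit of 3 counts. To enter the comparison over precursors, ratios needed 30 reads in both libraries together, and upstream shares and upstream principal ends 30 in the library. The ends, spacings and ratios given for single named precursors had no such minimum. The intervals and the joining of ends were tested on simulated data. For the placement, the placed member tags were only read back from the precursor sequence, which exact matching already ensured.

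The members and lists were chosen with earlier results of these data known. Set after seeing the ends of the members were the windows before the mature RNA, the 30% and 10 nt limits for upstream ends, the joining of ends before the 10% threshold, the 100 nt limit for distant ends, the stretches and distances shown, and 1 alternative (ends before the annotated precursor left out). Members were named throughout, and other precursors only where they stand beside members in an order. Python 3.11.15, numpy 2.4.6, pandas 2.3.3, scipy 1.17.1 and matplotlib 3.10.9 were used.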

Additional observations from a re-analysis of the deposited data

Results flagged for a closer look

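In the fiery library, 4 of the 6 reads of mir319b had a 5′ end over 100 nt past the annotated precursor, outside the ladder of cuts. They began at nt 290 (1 read) and nt 292 (3 reads), 118 and 120 nt past its end, at chr5:16660351 and chr5:16660349 on the minus strand. The wild-type library had 0 such ends in 55 reads, which allows a share of up to 5.45%. The result drew attention because the signal lies outside the measured hairpin. Distant ends were not particular to mir319b, since mir159a had 2 of 27 wild-type reads at nt 500, 316 nt past its base-side cut. How common such ends were over the other precursors was not counted. The annotation lists no other gene over the precursor, but it was not searched where these reads began. Their origin was not tested.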

How the results depend on the processing

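No paired analysis was possible because each genotype had 1 library. Of the values that answer a comparison, 43 moved by less than their counting interval or stayed within the spread of the members, and 27 moved. The order of the libraries turned in 3 pairs of values: the pooled loop-side shares below with distinct tags, and the median spacing, which for fiery was 21.5 nt and for wild type 23 nt with principal ends at 5% of reads, and 23 nt in both at 20%. The pooled ratio of shares, fiery over wild type, was 0.0477 in tags longer than 35 nt, 0.509 in tags of 35 nt or less, 0.407 with distinct tags counted once, 0.0540 for sense tags inside the annotated precursor and 0.220 relative to the median ratio. The pooled upstream share was 0% in fiery and 0% in wild type in tags of 35 nt or less, and in wild type 72.8% in longer tags and 47.2% of distinct tags. The 0% values carry little information, because the short tags of the members ended 6 to 56 nt past the mature RNA. A tag from an inner or outer rung to such an end would be longer than 35 nt. The pooled loop-side share of all reads was 6.73% in fiery and 1.70% in wild type in tags longer than 35 nt, 57.9% and 45% in shorter tags, 12.2% and 3.82% at the exact position, and 10.5% and 19.4% of distinct tags. The pooled base-side share was 26.0% in fiery and 10.7% in wild type at the exact position, 21.1% and 13.9% of distinct tags, and 5.26% and 0% in tags of 35 nt or less. The median upstream share of distinct tags was 16.7% in fiery over the other precursors and 46.4% in wild type over the members. Counted by reads, with at least 100 reads required, the wild-type median was 61.2% over mir319a and mir319c, the only members left. Among reads at the 2 cuts of the mature RNA, the loop-side share was 13.7% in fiery and 6.59% in wild type in tags longer than 35 nt, and 33.3% in fiery and 58.3% in wild type of distinct tags. Apart from that limit on short tags, the cause of these moves was not tested. Without ends before the annotated precursor, the median upstream share was 41.2% in fiery and 77.7% in wild type over the members, and 0.867% and 0% over the other precursors. In tags of 35 nt or less no ratio could be had for mir319b (0 fiery and 3 wild-type reads) or mir319c (no reads). Depth limits mir319b in fiery (6 reads) and mir159b in wild type (33 reads) most.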
